A study of Mus musculus with 16 samples.

Results

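Adropin is a small secreted peptide encoded by the gene Enho, and Gpr19 and Cntn6 encode the membrane proteins that have been put forward as its receptors. These 3 genes were taken by gene symbol from the 40481 genes listed in the count table, and their brain RNA levels were followed in each mouse. The animals were male C57BL mice (C57BL/6J in the text of the study), 18 months old when obtained, and all of them received a daily intraperitoneal injection, went through behavioral testing with the injections continued, and were fasted for 6 h before the brain was frozen. The adropin group (8 mice) received the synthetic putative secreted domain, adropin 34-76, at 90 nmol/kg/d over 4 weeks, and the saline group (8 mice) received the diluent, saline with bovine serum albumin. These 16 mice came from study groups of 15 each. No gene was altered in any mouse, so the counts of Enho measure the animal's own transcript, and the injected peptide adds no RNA.

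In the adropin precursor a short N-terminal stretch precedes the region that is predicted to be secreted, and this putative secreted domain is the part given as the synthetic peptide. GPR19 is an orphan G protein-coupled receptor, a receptor whose ligand is not settled. CNTN6, also called NB-3, is a contactin, one of a family of immunoglobulin-like cell adhesion molecules anchored in the membrane of neurons, and it has been described as a ligand of the Notch1 receptor. Contactins pair on the cell surface with contactin-associated proteins, with the adhesion molecules of the L1 family and with receptor tyrosine phosphatases. Enho is known from liver and brain, and in liver its transcription follows nutrient state and the circadian clock.

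Enho (ENSMUSG00000028445) lies on chromosome 4 of GRCm38 from 41638144 to 41640324 on the minus strand and has 2 exons and 1 annotated transcript of 1269 bases. Its coding sequence sits wholly in exon 2, from 41638612 to 41638842, and holds 76 codons and a stop. It is shown here, read from the GENCODE transcript of that build, because the same open reading frame contains the peptide that was injected. The capitals mark the 129 bases that encode residues 34 to 76, the 43 residues of the injected form.

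Enho coding sequence: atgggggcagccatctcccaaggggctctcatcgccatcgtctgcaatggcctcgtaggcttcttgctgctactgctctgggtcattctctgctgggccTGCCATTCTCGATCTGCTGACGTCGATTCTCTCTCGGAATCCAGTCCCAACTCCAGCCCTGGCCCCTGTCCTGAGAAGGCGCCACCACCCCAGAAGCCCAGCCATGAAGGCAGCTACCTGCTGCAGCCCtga

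Gpr19 (ENSMUSG00000032641) lies on chromosome 6 from 134869093 to 134898578 on the minus strand, with 2920 exon bases. Cntn6 (ENSMUSG00000030092) lies on the same chromosome from 104492790 to 104863406 on the plus strand, with 6499 exon bases spread over 370617 bases. It is therefore the longest of the 3 genes and Enho the shortest. The 3′ end of Enho shares 15 exon bases with Dnaic1 on the other strand, and Gpr19 shares 270 exon bases with the antisense gene 2810454H06Rik. Whether counting used strand is not given in the sources used here, so reads from those stretches cannot be assigned with certainty. The median count per mouse was 153.5 for Dnaic1 and 30.5 for 2810454H06Rik.

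Total counts ranged from 35026503 to 70314050 per mouse. The 3 genes were covered by 1781 to 3392 counts for Enho, 393 to 936 for Gpr19 and 281 to 824 for Cntn6. At the lowest of these counts, counting error alone (1 over the square root of the count) is 2.37%, 5.04% and 5.97% of the value. All 3 genes passed the filter on low values. Counts were scaled to counts per 1000000 (CPM) with TMM factors, which correct for a few genes taking up a large part of a library. Neurons, astrocytes and oligodendrocytes each had every one of their 8 or 9 markers detected, and the labels do not say which part of the brain was taken. Each mouse keeps the 2 numbers of its label as its name. Saline-treated mouse 8_3 stood apart: its 7 choroid plexus markers summed to 2470 TMM-normalized CPM against at most 330 in the other mice, and its 9 cerebellum markers to 669 against at most 126. With this mouse in the saline group, all 5 choroid plexus markers tested (Ttr, Kl, Clic6, Sostdc1 and Prlr) and 2 of 6 cerebellum markers (Car8 and Calb2) were lower in the adropin group at an unadjusted edgeR p below 0.05, where 2.13% of all genes tested were. The hippocampus, striatum, thalamus and olfactory bulb lists had 1 lower gene each at this threshold, for the olfactory bulb Calb2 again. On the higher side were 2 cerebral cortex markers and 1 microglia marker, where 1.86% of all genes tested were. In bulk tissue, fewer cells of a type and less RNA per cell cannot be told apart.

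Compared per length, as transcripts per 1000000 (TPM), from counts per exon base,, the ligand gene was far more abundant than either candidate receptor. Enho averaged 134 TPM over the 16 mice, a higher level than in 92.4% of the 14949 genes tested. Gpr19 averaged 14.1 TPM, above 47.1% of the genes, and Cntn6 5.32 TPM, above 24.5%. The order Enho, Gpr19, Cntn6 held in 16 of 16 mice, with 7.48 to 11.7 times as much Enho as Gpr19 and 2.08 to 3.28 times as much Gpr19 as Cntn6. The ranges of the 3 genes did not touch on the TPM scale. Enho ran from 114 to 163, Gpr19 from 10.7 to 17.1 and Cntn6 from 3.66 to 6.79.

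Within its family of 13 contactins and contactin-associated proteins, Cntn6 ranked 10 by mean TPM. Cntnap1, a partner of contactins at the paranodes of myelinated axons, was the highest at 152 TPM, followed by Cntn1 at 97.9 and Cntn2 at 57.2. Cntn4 averaged 12.0 TPM and Cntn3 9.73. The neighbours of Cntn6 in this order, Cntnap5b at 5.75 TPM (3.56 to 8.64) and Cntnap5c at 3.49 TPM (1.31 to 6.46), had ranges that overlapped with that of Cntn6. Cntn5 was lower still at 3.18 TPM.

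The comparison of the groups asks whether 4 weeks of the peptide went with a different level of its own gene or of either candidate receptor. Enho did not differ beyond the spread between mice. In the adropin group it had a lowest value of 44.1 TMM-normalized CPM, a median of 49.1 and a highest of 61.0. In the saline group these values were 47.3, 50.3 and 73.5. The groups overlapped over 11 of 16 mice, and the saline group held the most extreme mouse, 8_3, with the next at 64.2. The means were 51.6 ± 5.95 and 55.3 ± 9.78 (SD, n = 8 each). The log2 fold change, adropin minus saline here and throughout, was -0.10 with a standard error of 0.10 and a 95% confidence interval from -0.31 to 0.10 (edgeR quasi-likelihood test, Benjamini-Hochberg adjusted p = 0.877). The two-sided exact permutation test of the gene alone gave p = 0.400. Without mouse 8_3 the log2 fold change was -0.03.

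Gpr19 had a lower mean in the adropin group, a difference that passed the test of the gene alone and did not pass the adjustment over all genes. Its values in the adropin group ran from 10.7 (mouse 5_5) through a median of 12.0 to 13.9 TMM-normalized CPM (mouse 1_3). In the saline group they ran from 12.1 (mouse 8_1) through 14.4 to 15.0 (mouse 6_1). Every adropin-treated mouse (8 of 8) lay under the median of the saline group, while the ranges overlapped between 12.1 and 13.9, where 7 of the 16 mice lay. The means were 12.0 ± 1.05 and 13.7 ± 1.12 (SD, n = 8 each), a fold of 0.873 with a 95% confidence interval from 0.790 to 0.963. The log2 fold change was -0.20 with a standard error of 0.07 (edgeR unadjusted p = 0.00963, adjusted p = 0.874, rank 90 of 14949 genes by p), and the two-sided exact permutation test gave p = 0.00730.

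The share of all genes called gives the background for this value. At an adjusted p below 0.05 edgeR called 0 genes (0% of 14949), with the smallest adjusted p at 0.387, DESeq2 called 5, and 596 genes had an unadjusted p below 0.05. At an unadjusted p below 0.05, 2.13% of the genes were lower in the adropin group and 1.86% were higher, so that 1 member of 3 below this threshold is a result of a kind that 318 genes gave on the lower side. With each of the 16 mice left out in turn, the log2 fold change of Gpr19 stayed between -0.23 and -0.17 and its unadjusted edgeR p between 0.00359 and 0.0305. Scaled to the summed counts of Hprt, Rplp0 and Ppib, reference genes of the study, the log2 fold change of Gpr19 was -0.11 (edgeR unadjusted p = 0.218). That scaling moved the median log2 fold change of all genes to 0.09. With a block for the second number of the label, Gpr19 was at -0.16 (edgeR unadjusted p = 0.0568).

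Markers of other cells and regions moved with Gpr19 between mice of a group. The 8 oligodendrocyte markers, such as Mbp and Mog, all ran against Gpr19, with Pearson r from -0.554 to -0.450 and a median of -0.529 over the 16 mice (-0.601 without mouse 8_3). Their sum ranged from 2938 to 8240 TMM-normalized CPM in the adropin group (median 4297) and from 2821 to 8204 in the saline group (median 5492), and none of them was at 0. The summed 6 olfactory bulb markers correlated with Gpr19 at r = 0.544, with medians of 22.9 in the adropin group (17.6 to 45.5) and 35.8 in the saline group (19.6 to 97.2). Of the 4 olfactory bulb markers tested singly, Calb2 (0.548) and Cdhr1 (0.275) ran with Gpr19 and Doc2g (-0.091) and Shisa3 (-0.322) against it, with a median of 0.092. Calb2 averaged 18.4 ± 7.96 TMM-normalized CPM in the adropin group and 34.1 ± 24.0 in the saline group (SD, n = 8 each). It is also among the 9 cerebellum markers, whose sum correlated with Gpr19 at r = 0.356, and at 0.622 without mouse 8_3. The part of these cells in the Gpr19 difference was not tested.

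Cntn6 did not differ beyond the spread between mice either. Its values were 8.05 (mouse 7_4), a median of 11.1 and 13.0 TMM-normalized CPM (mouse 2_4) in the adropin group, against 9.55 (mouse 5_4), 10.5 and 12.9 (mouse 8_3) in the saline group. The ranges overlapped over 14 of 16 mice. The means were 10.9 ± 1.53 and 10.8 ± 1.12 (SD, n = 8 each). The log2 fold change was 0.02 with a standard error of 0.09 and a 95% confidence interval from -0.17 to 0.21 (edgeR adjusted p = 0.976, two-sided exact permutation p = 0.930), and its sign changed with the scaling.

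**Figure D1:**
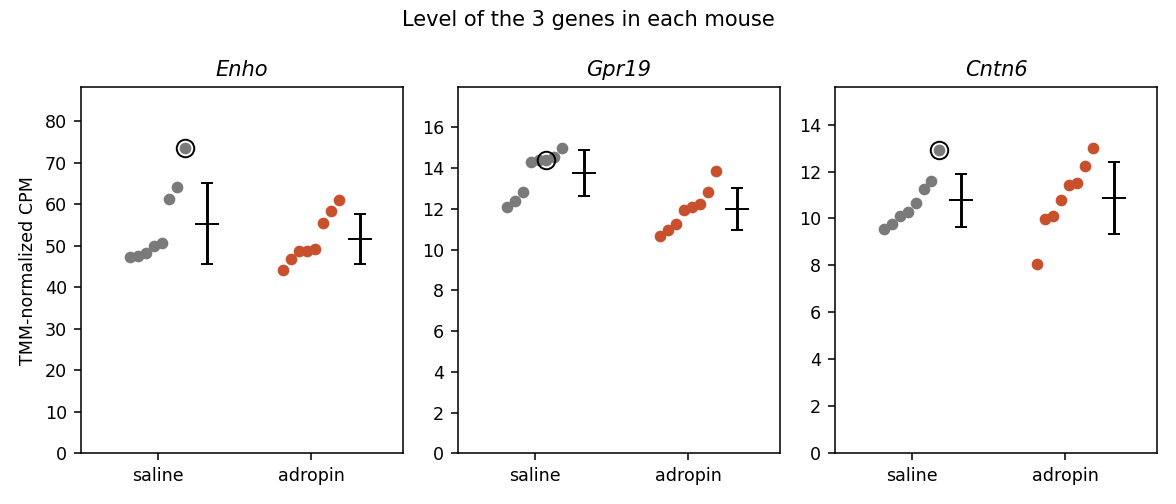
Level of Enho, Gpr19 and Cntn6 in each mouse, in TMM-normalized CPM on the vertical axis from 0, with saline-treated mice in grey and adropin-treated mice in orange, sorted by value within a group. Black bars give the mean and SD over 8 mice and the ring marks mouse 8_3, which has the highest Enho value (73.5) and the highest saline Cntn6 value (12.9).

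The members differed in how much they varied among mice of a group. The SD of log2 values within groups was 0.12 for Gpr19, and 19.2% of the genes tested had a lower one, with a median of 0.20 over all genes. It was 0.18 for Cntn6 and 0.21 for Enho. Among the 500 genes nearest in level, 12.8% had a lower SD than Gpr19, 44.4% a lower SD than Cntn6 and 74.8% a lower SD than Enho. Gpr19 thus combined a small difference between groups with a small spread within them.

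Ratios of counts within a library need no scaling factor. The ratio of Gpr19 to Cntn6 had a median of 1.10 in the adropin group (0.932 to 1.40) and 1.35 in the saline group (1.04 to 1.47). The difference on the log2 scale was -0.21 (two-sided exact permutation test, p = 0.0580). With single mice left out, p fell below 0.05 in 4 of 16 cases, without saline-treated mouse 8_3 (p = 0.0423), 8_1 (p = 0.0275) or 5_3 (p = 0.0390), or adropin-treated mouse 7_4 (p = 0.0197, the same exact permutation test). The log2 ratio of Gpr19 to Enho differed by -0.11 (exact permutation p = 0.339) and that of Cntn6 to Enho by 0.10 (exact permutation p = 0.506).

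**Figure D2:**
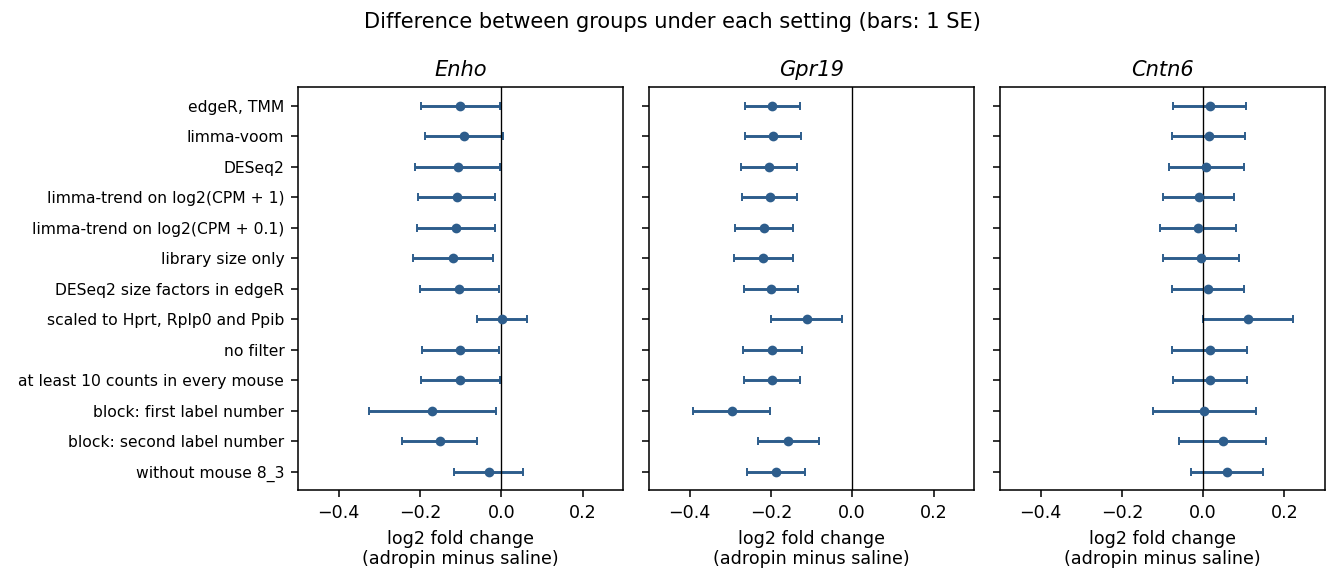
Log2 fold change (adropin minus saline, horizontal axis) of Enho, Gpr19 and Cntn6 under 12 ways of testing or scaling and, in the last line, without mouse 8_3, with bars of 1 standard error. The 13 values of Gpr19 all lie below 0, those of Cntn6 lie on either side of 0, and Enho scaled to Hprt, Rplp0 and Ppib lies at 0.002.

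No pair of the 3 genes had a correlation that passed the test over the 16 mice. With group means subtracted, Enho and Gpr19 had a Pearson r of 0.183 over the 16 mice (permutation p = 0.507; adjusted for the 8 relations examined, p = 0.671) and a Spearman's rho of 0.206 (permutation p = 0.458, adjusted p = 0.612). Gpr19 and Cntn6 had r = 0.206 (permutation p = 0.468, adjusted p = 0.671; rho = 0.132, permutation p = 0.632, adjusted p = 0.722). Leaving out the 2 mice with the most extreme values of the first gene gave r of 0.075 and 0.267.

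Enho and Cntn6 had r = -0.141 (permutation p = 0.587, adjusted p = 0.671; rho = -0.203, permutation p = 0.459, adjusted p = 0.612), a value that depended on mouse 8_3, which was high in both genes. Without that mouse r was -0.539 (permutation p = 0.0352, not adjusted). Without mice 4_3 and 8_3, the most extreme for Enho, it was -0.526. Within the adropin group r was -0.573 (exact permutation p = 0.135) and within the saline group 0.268 (exact permutation p = 0.522).

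The study names Apoe, Clu and Gsk3b among the genes it set beside ENHO in human brain. It also examined Apoe, Clu and insulin signalling genes in brain data of other mice. There it reports that Apoe and Clu appear to stay positive with Enho, with only Clu past its cutoff of 0.7. Insulin signalling genes are reported there as not sharing the relation seen in human brain. The same pairs were examined in the present mice. Enho rose and fell with Apoe, which encodes the main apolipoprotein of astrocytes, at r = 0.893 (permutation p = 0.000110, adjusted p = 0.000880; rho = 0.832, permutation p = 0.000240, adjusted p = 0.00192). The relation was present within the adropin group (r = 0.867, exact permutation p = 0.00506) and within the saline group (r = 0.917, exact permutation p = 0.0106). It was 0.888 without mice 4_3 and 8_3. With Clu, which encodes the apolipoprotein clusterin, r was 0.390 (permutation p = 0.201, adjusted p = 0.401; rho = 0.438, permutation p = 0.101, adjusted p = 0.201), and 0.431 without these mice.

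Enho ran opposite to Gsk3b, which encodes a kinase of insulin signalling. For this pair r was -0.757 (permutation p = 0.000970, adjusted p = 0.00259; rho = -0.612, permutation p = 0.0161, adjusted p = 0.0430). With mice 4_3 and 8_3 left out, r was -0.698. It was -0.775 within the adropin group (exact permutation p = 0.0189) and -0.777 within the saline group (exact permutation p = 0.0271). For Cntn6 and Notch1 r was 0.099 (permutation p = 0.709, adjusted p = 0.709; rho = 0.056, permutation p = 0.844, adjusted p = 0.844), and 0.455 without mice 7_4 and 8_3, the most extreme for Cntn6.

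Values of this size were common for Enho. Of the 14948 other genes tested, 1605 had an r with Enho above 0.7 and 1716 an r below -0.7, so Apoe ranked 109 from the top and Gsk3b 1111 from the bottom. For Gpr19 the corresponding numbers were 18 and 16 genes, and for Cntn6 12 and 5. The middle 90% of r values spanned -0.788 to 0.806 for Enho, -0.412 to 0.435 for Gpr19 and -0.336 to 0.408 for Cntn6. All r values for a member share the same 16 libraries and scaling factors, and correlations with the ranked genes are a description.

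**Figure D3:**
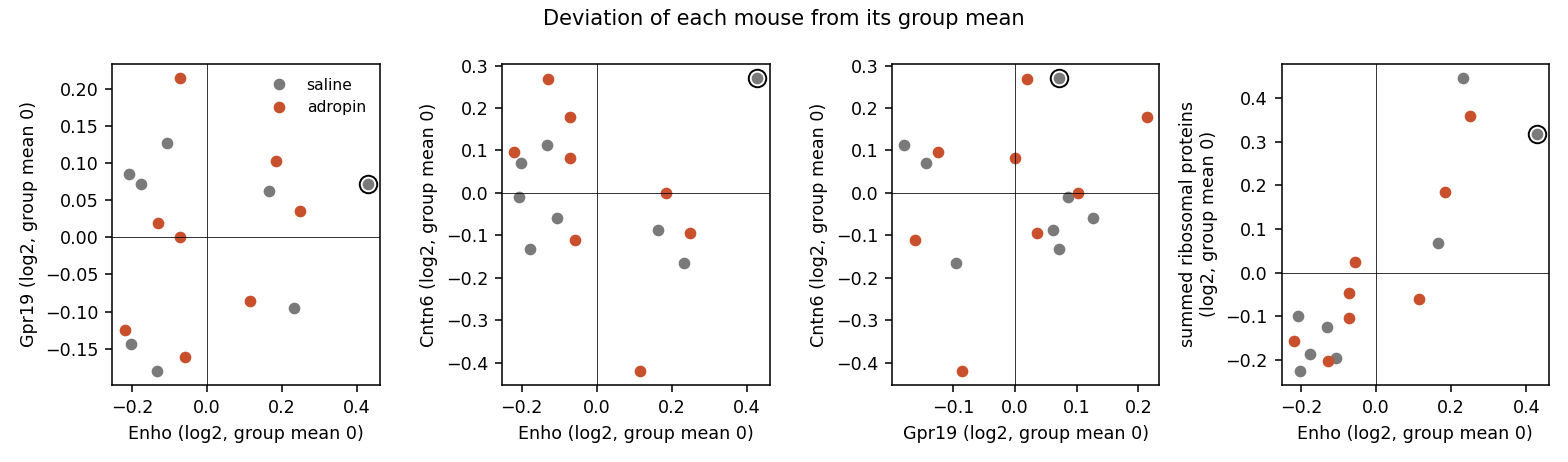
Each point is 1 mouse, plotted as its deviation from the mean of its group on the log2 scale, with saline in grey, adropin in orange and mouse 8_3 ringed. The panels pair Enho with Gpr19 (r = 0.183), Enho with Cntn6 (r = -0.141), Gpr19 with Cntn6 (r = 0.206) and Enho with the summed level of 82 ribosomal protein genes (r = 0.888), the 1 panel with a clear slope.

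The 10 genes whose level followed Enho most closely had r from 0.932 to 0.955. Fxyd1 (r = 0.955) encodes phospholemman, a regulator of the sodium-potassium pump, and S100b (0.936) a calcium-binding protein of astrocytes. Selenof (0.945) and Selenom (0.944) encode selenoproteins of the endoplasmic reticulum. Cd81 (0.939) encodes a tetraspanin, Timm17b (0.935) a mitochondrial import channel subunit, Atp6v1g1 (0.933) a subunit of the proton pump of lysosomes and vesicles, and Rabac1 (0.933) a Rab-binding membrane protein. BC031181 (0.936) and Rpl7 (0.932), a protein of the large ribosomal subunit, completed the list. None of these 10 genes had an unadjusted edgeR p below 0.05 between the groups, where 3.99% of all genes had one, so such a count is near the background. All 10 stayed among the 100 highest with library size only, with DESeq2 size factors and without mouse 8_3, and 5 of 10 did when ranked by Spearman's rho.

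At the other end were Cherp (r = -0.955), Ube2o (-0.951), Btaf1 (-0.945), Mast2 (-0.943) and Rab3gap2 (-0.934). Ube2o encodes a ubiquitin-conjugating enzyme, Btaf1 an ATPase that removes the TATA-binding protein from DNA, and Mast2 a serine/threonine kinase.

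Genes of protein synthesis and of mitochondrial respiration ran with Enho as groups. All 82 cytosolic ribosomal protein genes tested had an r above 0 with Enho, with a median of 0.867 (0.593 to 0.932), and 80 of 83 nuclear genes of oxidative phosphorylation did, with a median of 0.846, against a median of -0.034 over all genes. The summed level of the ribosomal proteins correlated with Enho at r = 0.868 within the adropin group and 0.900 within the saline group. The same 82 genes had a median r of 0.098 with Gpr19 and -0.140 with Cntn6, and for Cntn6 this median was -0.365 without mouse 8_3. Between the groups, the log2 fold change was below 0 for 82 of the 82 ribosomal protein genes (median -0.12) and for 75 of the 83 oxidative phosphorylation genes (median -0.10), where 50.8% of all genes were below 0. At an unadjusted edgeR p below 0.05 were 0 and 1 of them, where 3.99% of all genes were. Scaled to Hprt, Rplp0 and Ppib, of which Rplp0 is itself 1 of the 82 ribosomal protein genes, 23 and 42 of them lay above 0 instead, with medians of -0.02 and 0.0018, and without mouse 8_3 the medians were -0.07 and -0.06.

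Apoe and Gsk3b shared that axis. Their r with the summed ribosomal proteins was 0.897 and -0.889, while that of Clu was 0.096. The share of the relations of Enho with Apoe and Gsk3b that this common axis carries was not tested.

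The axis also ran with transcript length. The 100 genes most like Enho had a median of 2085 exon bases and the 100 genes least like it 8091, against 4322 over all genes tested and 1269 for Enho itself. Over 5 equal classes of length, the median r with Enho went from 0.491 in the shortest genes (median 1455 exon bases) through 0.184, -0.087 and -0.306 to -0.522 in the longest (median 9830). For Gpr19 it went from 0.070 to -0.015 and for Cntn6 from -0.098 to 0.136 between the same classes. Without mouse 8_3 the medians for Cntn6 went from -0.225 to 0.259, opposite in direction to those for Enho, which went from 0.480 to -0.529. The median log2 fold change between the groups moved with length too, from -0.075 in the shortest class, which holds Enho, to 0.059 in the longest. Apoe (2138 exon bases) also falls in the shortest class, Clu (3437) in the next and Gsk3b (9831) in the longest. The GC content of the 100 highest and 100 lowest genes was 51.5% and 52.1% in the median, and Enho correlated with the total count at r = -0.109 and with the share of counts in Gm42418, which took 0.840% to 4.98% of a library, at -0.452. The part of transcript length in the Enho values was not tested.

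**Figure D4:**
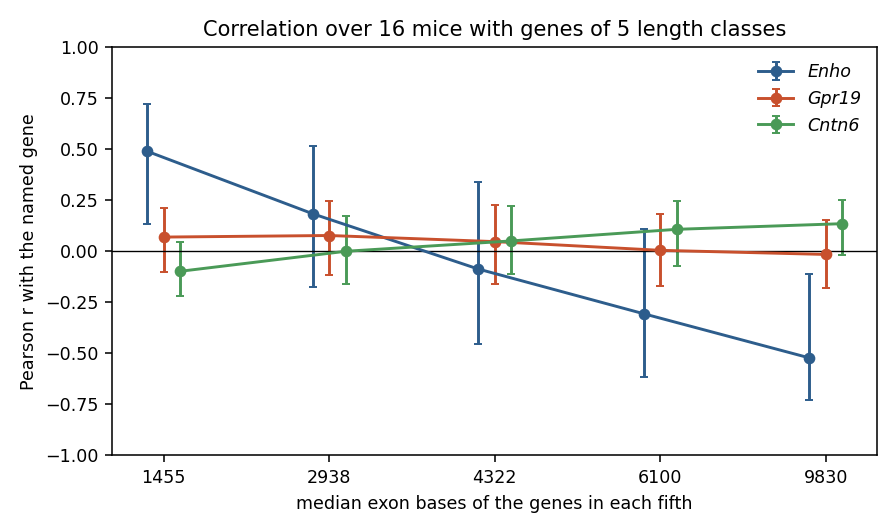
Median Pearson r over 16 mice (points, with bars from the lower to the upper quartile of the genes) between each member and the genes of 5 equal length classes, evenly spaced on the horizontal axis and marked with their median exon bases. The median for Enho falls from 0.491 to -0.522, while those of Gpr19 and Cntn6 stay between -0.098 and 0.136 (for Cntn6 without mouse 8_3, not drawn, -0.225 to 0.259).

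Some marker lists ran with Enho and others were divided. All 8 oligodendrocyte markers had an r above 0 (median 0.316, and 0.126 without mouse 8_3), as had the 3 ependyma markers tested (median 0.556, and 0.387 without that mouse). The summed oligodendrocyte precursor markers ran against Enho at r = -0.743 and the summed astrocyte markers at -0.685. Taken singly, both lists were divided: 2 of the 6 precursor markers, C1ql1 (0.397) and Olig2 (0.194), had an r above 0, and Gpr17 (-0.824) had the lowest. Among 9 astrocyte markers r ranged from -0.811 for Fgfr3 to 0.936 for S100b, with 4 above 0, while Gfap was at 0.22 and Aqp4 at 0.02. Of the 8 neuronal markers 4 were above 0. The 5 choroid plexus markers tested, of 7 listed, all had r of 0.585 or more with Enho, and their median fell from 0.645 to 0.383 without mouse 8_3. The median for the 6 cerebellum markers tested fell from 0.553 to 0.109. The part of these cells in the Enho values was not tested.

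The genes most like Gpr19 were led by Gcnt2 (r = 0.799), a glycosyltransferase that branches sugar chains, Fam3c (0.773), a secreted cytokine-like protein, and Slc39a8 (0.769), a zinc and manganese transporter. Tmtc4 (0.755), Ndfip1 (0.753), an adaptor of Nedd4 ubiquitin ligases, Mis12 (0.751), a kinetochore protein, Ube2v2 (0.739), Fam174b (0.739), Tdrp (0.737) and Calhm2 (0.729) followed. Gcnt2 was the 1 gene of these 10 with an unadjusted p below 0.05 between the groups, where 3.99% of all genes had one. It was higher in the adropin group (log2 fold change 0.19, edgeR unadjusted p = 0.042, adjusted p = 0.874), where the Gpr19 mean was lower. Dhx34 (-0.810), Unk (-0.802), Atad5 (-0.802), Jam3 (-0.765) and Ttc7 (-0.752) had the lowest r. With library size only, Atad5 was at -0.822 and the other 4 between -0.613 and -0.450. All 10 of the highest stayed among the 100 highest under both other scalings, without mouse 8_3 and by Spearman's rho.

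The genes most like Cntn6 were Npr1 (r = 0.811), a receptor for atrial natriuretic peptide, Slc16a13 (0.794), a monocarboxylate transporter, Pxylp1 (0.790) and St8sia5 (0.776), a sialyltransferase that makes gangliosides. They were followed by Ppp4r3a (0.738), Nrg2 (0.718), a ligand of ErbB receptors, Dact1 (0.715), a regulator of Wnt signalling, Polk (0.710), Gpc6 (0.710), a cell surface proteoglycan, and Tmem185a (0.703). Dact1 was lower in the adropin group (log2 fold change -0.47, edgeR unadjusted p = 0.016, adjusted p = 0.874) with no difference in Cntn6. Of these 10 genes 5 stayed among the 100 highest without mouse 8_3 and 7 by Spearman's rho. The lowest r belonged to the pseudogene Gm12191 (-0.711), the noncoding A230006K03Rik (-0.710) and Sorbs2os (-0.704), Hcls1 (-0.703) and Ptges3l (-0.701). Of these, Ptges3l had an unadjusted p below 0.05 between the groups (log2 fold change -0.49, edgeR unadjusted p = 0.044, adjusted p = 0.874), where 3.99% of all genes had one. Its mean was near the filter on low values, at 0.967 TMM-normalized CPM in the adropin group and 1.35 in the saline group. Of the 100 highest for each member, out of 14948 genes, Enho shared 0 with Gpr19 and 0 with Cntn6, and Gpr19 and Cntn6 shared 2. With lists this small a part of all genes, these numbers are too small to read an order from.

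Among the pathways of the candidate receptors, few genes passed the test and none passed the adjustment over all genes. Of the 13 contactins and contactin-associated proteins tested, 1 was higher at an unadjusted p below 0.05, Cntnap5a, at 57.7 ± 8.44 TMM-normalized CPM in the adropin group and 47.6 ± 11.1 in the saline group (SD, n = 8 each; log2 fold change 0.28, edgeR unadjusted p = 0.0421, adjusted p = 0.874), where 1.86% of all genes were higher. The log2 fold change was above 0 for 12 of the 13 genes and for 11 to 13 under other scalings, with a median of 0.11, against -0.0019 over all genes. Without mouse 8_3 it was above 0 for 10 of the 13, with a median of 0.06. The exon bases of these genes ran from 3931 to 10945, and the classes these lengths fall in, the 3 longest, had median log2 fold changes of -0.0005, 0.027 and 0.059. Between mice of a group, 1 of the 13 had an r above 0 with Enho, as had 7210 of 14948 genes, and their median r was -0.477, against -0.087, -0.306 and -0.522 in these classes. The part of length in these values was not tested. With Cntn6 the median r of the other 12 was 0.134, or 0.313 without mouse 8_3, and the highest was 0.403 for Cntn4, its neighbour on the chromosome. Of the 10 binding partners of contactins, such as Chl1, Nrcam and the receptor phosphatases Ptprg and Ptprz1, 0 had an unadjusted p below 0.05 (edgeR), with a median log2 fold change of 0.08.

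Of 37 Notch receptors, ligands, processing enzymes and targets, 1 was lower at an unadjusted p below 0.05. Psen2, which encodes a catalytic subunit of gamma-secretase, averaged 18.1 ± 0.899 TMM-normalized CPM in the adropin group and 19.8 ± 1.23 in the saline group (SD, n = 8 each; log2 fold change -0.13, edgeR unadjusted p = 0.0209, adjusted p = 0.874). As 2.13% of all genes were lower, 1 gene of 37 is near the background. Notch1 itself had 25.6 ± 6.34 and 22.8 ± 6.61 (edgeR adjusted p = 0.878). The Notch target genes Hes1 and Hes5 had log2 fold changes of -0.22 and 0.08 with unadjusted edgeR p of 0.0941 and 0.709. The median over the list was 0.04, and the median r with Cntn6 was -0.076, or 0.099 without mouse 8_3.

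Of 50 orphan class A receptors listed, 33 were tested, and 2 were lower at an unadjusted p below 0.05, Gpr19 itself and Gpr3, which encodes a receptor that raises cyclic AMP without an added ligand. Gpr3 averaged 7.74 ± 1.38 TMM-normalized CPM in the adropin group and 10.1 ± 1.67 in the saline group (SD, n = 8 each; log2 fold change -0.38, edgeR unadjusted p = 0.00463, adjusted p = 0.874). The list held 2 of 33 genes on the lower side, where 2.13% of all genes were, and its median log2 fold change was 0.04.

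Among 17 clock genes and nuclear receptors, Rorb, which encodes an orphan nuclear receptor of the retina and cortex, was higher (log2 fold change 0.35, edgeR unadjusted p = 0.0333, adjusted p = 0.874) and Per1, a core clock gene, was lower (-0.26, edgeR unadjusted p = 0.0327, adjusted p = 0.874), where 1.86% and 2.13% of all genes were higher and lower. Rorb is also 1 of the 8 markers listed for cerebral cortex. Of these 8, 2 were higher at an unadjusted edgeR p below 0.05 and 2 had a log2 fold change below 0, with a median of 0.19. The part of the tissue taken in the Rorb difference was not tested. Between mice of a group, Npas2 (r = -0.915), Cry2, Clock, Per2 and Arntl ran against Enho, the last 4 between -0.84 and -0.74. Dbp (0.50) and Nr1h3 (0.49) ran with it. Of the 17 genes 5 had an r above 0, and the median was -0.342 (-0.491 without mouse 8_3). Such values were common for Enho, as 1716 of 14948 genes had an r below -0.7. The part of transcript length or of the ribosomal protein axis in these values was not tested. Of the 11 apolipoprotein and insulin signalling genes, 0 had an unadjusted p below 0.05 (edgeR), and at the 3.99% over all genes such a count is the background. Apoe averaged 2006 ± 232 TMM-normalized CPM in the adropin group and 2120 ± 287 in the saline group (SD, n = 8 each; edgeR adjusted p = 0.877).

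**Figure D5:**
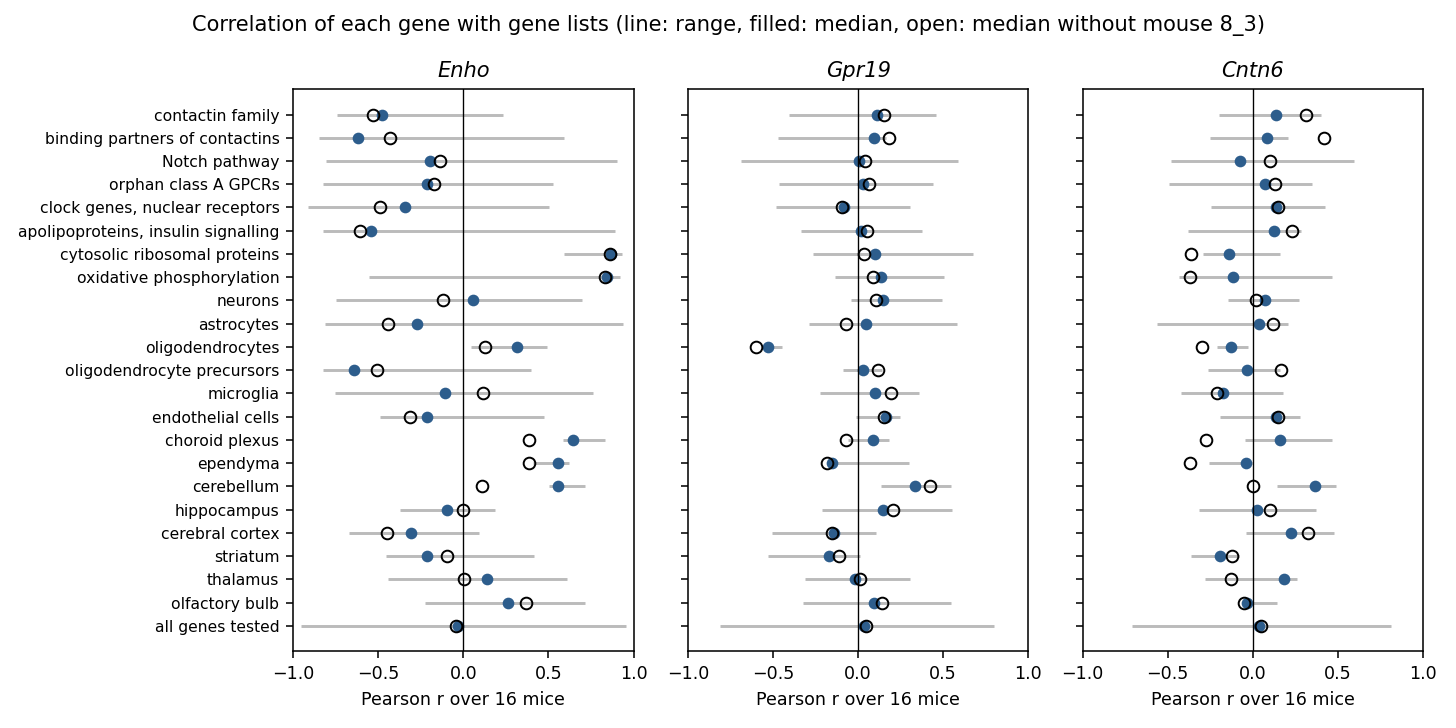
Pearson r over 16 mice (horizontal axis) of Enho, Gpr19 and Cntn6 with the tested genes of each list, as the range (line), the median (filled) and the median without mouse 8_3 (open). For Enho the ribosomal protein and oxidative phosphorylation medians lie at 0.867 and 0.846, for Gpr19 the oligodendrocyte median lies at -0.529, and for Cntn6 the filled medians of the lists shown, those with 3 or more genes tested, lie between -0.194 and 0.366. The open medians for Cntn6 lie between -0.370 (ependyma) and 0.419 (binding partners of contactins).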

How the data were processed

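Poly-A selected brain RNA of 16 mice was sequenced as paired reads. The authors used STAR for alignment to GRCm38 (Ensembl release 76) and featureCounts for raw counts per gene, and deposited these counts together with CPM, counts per 1000000 of a total 0.0961% to 0.1095% above the sum of the listed genes. Of 40757 entries 276 repeats were dropped. TMM factors (0.952 to 1.03) were computed in edgeR 4.0.16 (R 4.3.3), 355 ribosomal RNA genes were left out, and 14949 genes (over 1 CPM in 7 or more mice) were fitted with edgeR's quasi-likelihood test and no covariate. Permutation tests of single genes covered all 12870 divisions of the mice. Correlations used log2 TMM-normalized CPM (prior count 2) with group means subtracted, with 100000 permutations within groups for 8 relations. TPM used exon bases of the GENCODE annotation on GRCm38. Alternatives used limma 3.58.1 and DESeq2 1.42.0, and the edgeR fit and the correlations were tested on simulated data.

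The members and lists were chosen with earlier results of these data known. The genes named are the members, the 10 genes with the highest and 5 with the lowest r for each, pathway list genes with an unadjusted p below 0.05 or past a fold change of 1.5, the genes of the 8 relations (the result for 1 of them is not reported here), and genes that overlap or neighbour a member. Other genes given as examples of a list (Hes1, Hes5, contactins, clock genes and cell markers) were chosen after their values were seen. Each mouse is 1 replicate. Counting error covers reads only.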

Additional observations from a re-analysis of the deposited data

Results flagged for a closer look

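In 54 groups of 8 mice (the members, their partner genes, count ratios and summed marker lists), the highest or lowest mouse was compared with its nearest neighbour relative to the range. In 6 groups 1 mouse stood apart, where chance gives 2.7. No level or ratio of Enho, Gpr19 or Cntn6 was among them, although mouse 8_3 had the highest Enho value.

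Saline-treated mouse 8_3 gave 4 of the 6: its summed choroid plexus markers were 2470 TMM-normalized CPM (nearest 330), its cerebellum markers 669 (nearest 126), its midbrain and hindbrain markers 12.7 (nearest 4.17) and its olfactory bulb markers 97.2 (nearest 52.6). Clu was 1008 TMM-normalized CPM in saline-treated mouse 2_3 (nearest 902). Summed oligodendrocyte markers were 8240 in adropin-treated mouse 7_4 (nearest 5245), the mouse with the lowest Cntn6 value.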

How the results depend on the processing

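No alternative brought an adjusted p below 0.05 for any of the 3 genes, and Gpr19 stayed below 0 under all 27. Enho was 0.0022 when scaled to Hprt, Rplp0 and Ppib, a scaling that moved the median of all genes to 0.09. Cntn6 was -0.011 and -0.013 by limma-trend on log2(CPM + 1) and log2(CPM + 0.1) and -0.0052 with library size only. With each mouse left out, the log2 fold change ranged from -0.13 to -0.03 for Enho, -0.23 to -0.17 for Gpr19 and -0.018 to 0.068 for Cntn6, and the log2 ratio of Gpr19 to Cntn6 from -0.25 to -0.17. The range of r was -0.539 to -0.049 for Enho and Cntn6, -0.072 to 0.277 for Cntn6 and Notch1, and 0.881 to 0.911 for Enho and Apoe. The r of 8 relations kept its sign with library size only, DESeq2 size factors and group means not subtracted.

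The label numbers were not shown to pair the mice: mice of opposite groups that share the first number correlated at -0.272 to 0.217 in their deviations (2 of 5 pairs above 0.1), those sharing the second at -0.561 to 0.299 (7 of 17). With the first number as a replicate block the log2 fold change was -0.17 for Enho, -0.30 for Gpr19 (edgeR unadjusted p = 0.0095) and 0.0031 for Cntn6, and with the second -0.15, -0.16 and 0.05. List genes at an unadjusted p below 0.05 numbered 0 contactins under either block, 0 Notch genes under the first, 1 orphan receptor under the second and 4 by limma-voom, and 1 clock gene under the first block, 0 under the second and 1 by limma-voom. The cause was not tested. At an adjusted p below 0.05, 5 genes were called by DESeq2, 2 with the second block and 0 by edgeR, and at an unadjusted p below 0.05 edgeR gave 596, 327 with the first block and 1902 of 30210 without the filter. Depth limits Cntn6 and Gpr19 most, at 281 and 393 counts in the mouse with the fewest for each gene.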

Other observations

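These are the values of the genes on either side of the members. Cntfr, a receptor subunit for ciliary neurotrophic factor that lies 17173 bases above Enho on the same strand, had r = 0.695 with Enho over the 16 mice, and Fam219a on the other side had r = -0.489. Dnaic1, which overlaps the 3′ end of Enho, averaged 3.35 ± 0.606 TMM-normalized CPM in the adropin group and 3.93 ± 0.628 in the saline group (SD, n = 8 each; edgeR adjusted p = 0.874) and r = 0.263 with Enho. The neighbours of Gpr19, Crebl2 and the cell cycle inhibitor gene Cdkn1b, had r of 0.073 and 0.216 with it and log2 fold changes of 0.01 and -0.08 (edgeR adjusted p = 0.970 and 0.877). Cntn6 lies between 2 other adhesion molecule genes, Chl1 and Cntn4, 742578 and 814253 bases away, with r of 0.117 and 0.403.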
